A study of Mus musculus with 10 samples.

Results

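Cells that are stressed or dying release ATP, and a small set of genes decides what becomes of it outside the cell. Transcripts of 10 such genes were examined: the ectonucleotidases Entpd1 and Nt5e, the adenosine deaminase gene Ada, the adenosine receptor genes Adora2a, Adora2b and Adora3, and the ATP and nucleotide receptor genes P2rx4, P2rx7, P2ry2 and P2ry6. They were taken by symbol from a table of 24421 genes, 12926 of which had a value above 0 in any library, and all 10 were measured in all 10 libraries. The libraries are poly(A) RNA sequencing of whole YUMMER1.7 melanomas, 5 from WT mice and 5 from Siah2 KO mice, taken 10 days after 100000 cells were placed under the skin. YUMMER1.7 carries the Braf V600E allele and lacks Cdkn2a, among other alleles, and the same line was given to both groups, so that the genotype is that of the host in its whole body and not of the injected cells. Siah2 is a RING-type ubiquitin ligase. The first sample's label gives the strain as C57Bl6, with a number that climbs from sample to sample in the others, and no age or sex is stated for these mice in the labels. The comparison asks how ATP and adenosine genes differ in tumors of hosts that lack Siah2.

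In tissue, extracellular ATP acts as a danger signal. It opens P2X channels and activates some P2Y receptors on leukocytes, and strong activation of P2X7 in macrophages sets off the NLRP3 inflammasome and release of interleukin 1 beta. CD39, the product of Entpd1, cuts ATP and ADP down to AMP, and CD73, the product of Nt5e, turns AMP into adenosine. Adenosine then restrains T cells and NK cells, chiefly through the receptor encoded by Adora2a, until it is taken up by cells or converted to inosine by adenosine deaminase. In tumors this route from ATP to adenosine is known as a source of immune suppression.

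Values are scores, that is, read counts that the authors brought to a common scale and rounded. Siah2 itself was not lower in the tumors labelled Siah2 KO. WT tumors had Siah2 scores of 391, 428, 407, 393 and 408. KO-labelled tumors had 573, 739, 747, 490 and 610, all 5 of them above the highest WT tumor (log2 difference 0.62, limma adjusted p = 0.00104). Whether the injected cells carry intact Siah2 is not stated, and a whole-tumor score sums RNA of injected and host cells. The group is therefore called KO-labelled, and each direction rests on the labels. Of the melanoma genes checked, 6 of 8 (Mlana, Pmel, Tyr, Tyrp1, Dct and Sox10) were listed at 0 in every library, and since a 0 in this table is not a proof of absence, tumor identity rests on the labels as well. Of the 2 that were measured, Mitf had means of 346 and 359 and did not pass, while S100b fell 7.44-fold, from 80.2 ± 20.7 to 12.4 ± 10.2, without overlap (limma adjusted p = 0.00029). The steps between low scores place an estimated 10760000 to 18220000 reads in a WT library and 15670000 to 18540000 in a KO-labelled one. WT2, with the fewest, WT3 and WT6 lay below every KO-labelled library. Tumors are named by their columns, and the numbers of KO4 and KO5 are not tied to a sample title. In whole tumors, fewer cells of a type and less RNA per cell cannot be told apart.

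The sequence just before the transcription start is shown for Entpd1, which differed most between the groups, for P2rx4 and P2rx7, neighbours on chromosome 5 that went in opposite directions, and for Adora2b, which is known as a target of hypoxia-inducible factors. Each run holds the 250 bases before the first RefSeq start of the gene (build GRCm38.p6, plus strand, 5′ to 3′). Capitals mark the core letters of the hypoxia response element, ACGTG or GCGTG, and the GC box of Sp1-type factors, GGGCGG, searched on both strands.
Entpd1 (chr19:40612116-40612365): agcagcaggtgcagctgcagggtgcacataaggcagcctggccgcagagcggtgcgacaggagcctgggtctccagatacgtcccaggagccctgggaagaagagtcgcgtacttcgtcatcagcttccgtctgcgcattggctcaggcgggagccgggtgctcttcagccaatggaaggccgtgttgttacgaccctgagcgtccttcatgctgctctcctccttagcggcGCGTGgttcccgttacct
Adora2b (chr11:62248734-62248983): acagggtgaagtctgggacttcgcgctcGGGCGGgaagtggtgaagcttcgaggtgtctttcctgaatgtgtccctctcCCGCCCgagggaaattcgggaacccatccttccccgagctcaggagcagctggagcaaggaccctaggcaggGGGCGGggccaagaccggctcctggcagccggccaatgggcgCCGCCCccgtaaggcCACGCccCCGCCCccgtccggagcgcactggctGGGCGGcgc
P2rx4 (chr5:122707294-122707543): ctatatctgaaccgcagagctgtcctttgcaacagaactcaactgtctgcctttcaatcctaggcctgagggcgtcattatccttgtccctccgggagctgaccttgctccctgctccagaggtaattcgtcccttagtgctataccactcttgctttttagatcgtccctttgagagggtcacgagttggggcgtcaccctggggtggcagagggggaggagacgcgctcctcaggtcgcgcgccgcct
P2rx7 (chr5:122643677-122643926): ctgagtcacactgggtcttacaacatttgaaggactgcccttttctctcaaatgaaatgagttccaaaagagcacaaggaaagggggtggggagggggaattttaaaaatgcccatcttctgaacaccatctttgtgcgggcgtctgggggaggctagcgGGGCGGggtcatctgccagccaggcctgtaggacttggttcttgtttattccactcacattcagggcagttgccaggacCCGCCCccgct
The Entpd1 window held 1 match to GCGTG and none to the other letters. The Adora2b window held 6 GC boxes and 1 match to GCGTG, that of P2rx7 held 2 GC boxes, and that of P2rx4 held no match. Among all 32851 windows of this length in the table, 16.6% held ACGTG, 28.2% GCGTG and 32.7% GGGCGG. A match is a run of letters and not a tested binding site.

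Of the 10 genes, 8 were higher and 1 was lower in KO-labelled tumors, and P2ry6 did not pass the test. The test was limma on log2(score + 1) with Benjamini-Hochberg adjustment over all 12926 genes, at a threshold of 0.05. Over all genes 35.6% were called by the same rule, 17.5% as higher and 18.2% as lower. Higher calls made up 49.0% of all calls, or 38.6% when each library was scaled to its total score, and the same counts of 8 and 1 among the 10 genes were found with either. The median log2 difference of the 10 genes was 0.46, and that of all tested genes was -0.00056. The groups did not overlap for 5 genes that were higher and for P2rx7, which was lower, while over all genes 24.8% did not overlap.

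**Figure D1:**
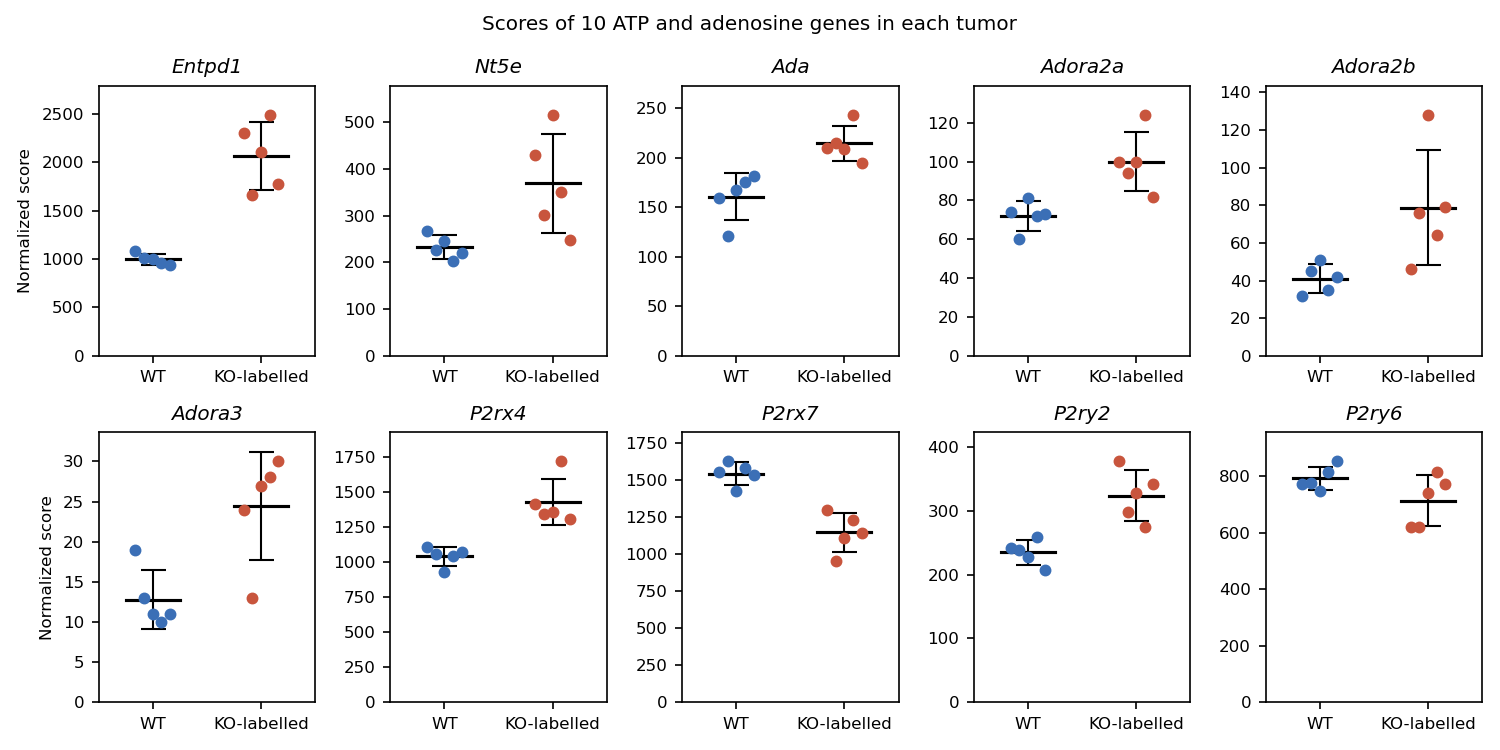
Normalized score (vertical axis, from 0, own scale in each panel) of the 10 genes in the 5 WT tumors (blue) and the 5 KO-labelled tumors (red), with the mean (thick line) and SD (bars). Entpd1 reaches 938 to 1079 in WT and 1655 to 2486 in KO-labelled tumors without overlap, whereas P2ry6 overlaps.

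Entpd1 and Nt5e, which encode enzymes on the route from ATP to adenosine, were both higher. Other ectoenzymes, given further below, did not all go the same way. Entpd1 (ENSMUSG00000048120.16, mm10 chr19:40612366-40741602, plus strand), whose product CD39 is carried by macrophages, endothelium, regulatory T cells and chronically stimulated CD8+ T cells, scored 1079, 1013, 995, 957 and 938 with WT hosts. With KO-labelled hosts it scored 2302, 1655, 2103, 2486 and 1769. The lowest KO-labelled tumor stood well above the highest WT tumor. The mean rose from 996 ± 54.9 to 2063 ± 350.2 (SD, n = 5 each), with a log2 difference of 1.03 ± 0.11 SE (2.05-fold, 95% interval 1.74 to 2.40, limma adjusted p = 2.0e-05). Of all tested genes, 97.4% had a lower log2 difference. Among genes with a plain symbol, those whose profile over the 10 tumors lay closest to that of Entpd1 were Cd53, a leukocyte tetraspanin, Pfkfb3, a regulator of glycolysis, and Slc31a2, a copper transporter, with root mean square differences of 0.13, 0.14 and 0.14 on the log2 scale.

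Nt5e (ENSMUSG00000032420.8, mm10 chr9:88327197-88372092, plus strand), whose product CD73 is found on fibroblasts, endothelium and some lymphocytes, scored 268, 227, 245, 202 and 219 in WT tumors against 429, 302, 515, 350 and 247 in KO-labelled ones. Here 4 of 5 KO-labelled tumors exceeded every WT tumor, and KO5 lay within the WT range. The mean rose from 232 ± 25.3 to 369 ± 105.7 (log2 difference 0.62 ± 0.17 SE, limma adjusted p = 0.0132). The log2 ratio of Entpd1 to Nt5e within a tumor ranged from 2.01 to 2.24 in WT tumors and from 2.03 to 2.84 in KO-labelled ones, with means of 2.10 and 2.51. Of the KO-labelled tumors, KO3 fell in the WT range of this ratio, as it had the highest Nt5e.

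Ada (ENSMUSG00000017697.3, mm10 chr2:163726584-163750239, minus strand), which encodes the enzyme that removes adenosine, was higher as well. It scored 159, 121, 167, 175 and 181 in WT tumors against 210, 215, 209, 243 and 195 in KO-labelled ones, with no overlap. The mean rose from 160.6 ± 23.6 to 214 ± 17.6 (log2 difference 0.42 ± 0.12 SE, limma adjusted p = 0.0160). Ada was the only 1 of the 10 genes whose log2 values spread less in KO-labelled than in WT tumors, with SDs of 0.12 and 0.23. The log2 ratio of Nt5e to Ada averaged 0.54 ± 0.30 (SD) with WT hosts and 0.74 ± 0.41 with KO-labelled hosts, and its ranges overlapped.

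All 3 adenosine receptor genes were higher, from low levels. Adora2a (ENSMUSG00000020178.6, mm10 chr10:75316877-75334784, plus strand) encodes a receptor that raises cyclic AMP in T cells and myeloid cells. It scored 74, 60, 81, 72 and 73 in WT tumors against 100, 94, 100, 124 and 82 in KO-labelled ones. The closest pair, WT4 and KO5, differed by 1 unit of score, so that the separation of the groups was narrow. The log2 difference was 0.46 ± 0.14 SE (1.38-fold, limma adjusted p = 0.0203), and without WT3, the lowest tumor, it was 0.40 and no longer passed (limma adjusted p = 0.0545).

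Adora2b (ENSMUSG00000018500.2, mm10 chr11:62248984-62266453, plus strand) encodes a receptor that needs higher adenosine concentrations than that of Adora2a. It scored 32, 45, 51, 35 and 42 in WT tumors against 46, 76, 128, 64 and 79 in KO-labelled ones. KO1 fell within the WT range and KO3 was the highest, so that Adora2b varied most of the 10 genes among KO-labelled tumors (log2 SD of 0.53). The log2 difference was 0.86 ± 0.24 SE (1.82-fold, 95% interval 1.27 to 2.60, limma adjusted p = 0.0140). The log2 ratio of Adora2b to Adora2a ranged from -1.18 to -0.41 in WT and from -1.10 to 0.35 in KO-labelled tumors and overlapped.

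Adora3 (ENSMUSG00000000562.5, mm10 chr3:105870858-105908926, plus strand), which encodes the A3 receptor of myeloid and mast cells, was the least abundant. It scored 19, 13, 11, 10 and 11 in WT tumors against 24, 13, 27, 28 and 30 in KO-labelled ones, or about 9.96 to 13.3 reads and 14.8 to 30.1 reads as estimated from the steps. KO2 lay at the level of WT3. The log2 difference of 0.86 ± 0.27 SE passed (limma adjusted p = 0.0260), but with WT4, WT5, WT6, KO3, KO4 or KO5 left out in turn it did not (limma adjusted p = 0.0525 to 0.0605). In the GENCODE annotation 20.9% of the exon bases of Adora3 also belong to Tmigd3, a gene on the same strand that was listed at 0 in every library, so reads could be confused between both genes.

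**Figure D2:**
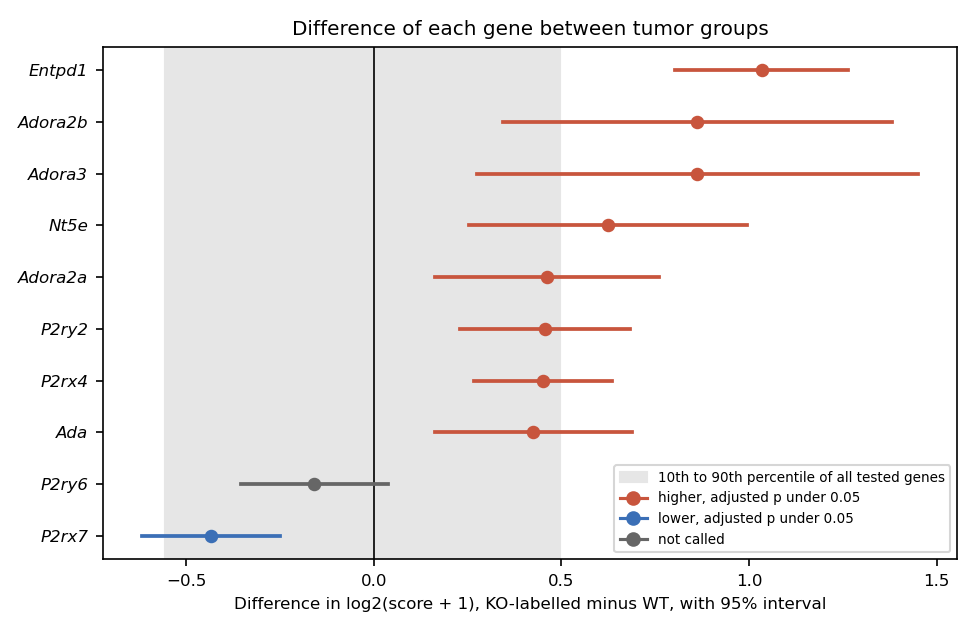
Difference in log2(score + 1) between 5 KO-labelled and 5 WT tumors for each gene (points) with its 95% interval (bars). The grey band, from -0.56 to 0.50, holds the differences between the 10th and the 90th percentile of all tested genes, and Entpd1, Adora2b, Adora3 and Nt5e lie above it.

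The receptors for ATP itself went in both directions. P2rx7 and P2rx4 encode ATP-gated cation channels that macrophages carry in large numbers, P2X7 needing far more ATP than P2X4. They lie beside each other on chromosome 5 in the same orientation (P2rx7, ENSMUSG00000029468.17, mm10 chr5:122643911-122691432, and P2rx4, ENSMUSG00000029470.15, mm10 chr5:122707544-122729738), 16111 bases apart with no coding gene between. P2rx4 scored 1104, 1055, 929, 1042 and 1067 in WT tumors against 1414, 1338, 1357, 1715 and 1307 in KO-labelled ones. All 5 KO-labelled tumors were above all WT tumors, and KO4 stood apart from the rest of its group. P2rx4 rose from 1039 ± 65.9 to 1426 ± 166.1 (log2 difference 0.45 ± 0.09 SE, limma adjusted p = 0.00141).

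P2rx7 scored 1551, 1625, 1424, 1584 and 1531 in WT tumors against 1295, 952, 1107, 1232 and 1144 in KO-labelled ones. All 5 KO-labelled tumors were below all WT tumors. P2rx7 fell from 1543 ± 75.5 to 1146 ± 131.1 (log2 difference -0.44 ± 0.09 SE, 1.35-fold lower, limma adjusted p = 0.00175). The log2 ratio of P2rx7 to P2rx4 ranged from 0.49 to 0.62 in WT tumors and from -0.49 to -0.13 in KO-labelled tumors. Its means were 0.57 and -0.32, without overlap. That separation follows from the separation of each gene. Scores also depend on exon length, so the sign of the ratio does not say which gene was more abundant.

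P2ry2 and P2ry6 encode G protein-coupled receptors for ATP and UTP and for UDP, respectively, and are also neighbours (P2ry2, ENSMUSG00000032860.5, mm10 chr7:100996568-101012866, and P2ry6, ENSMUSG00000048779.5, mm10 chr7:100937630-100974649, both minus strand). P2Y2 is known for guiding phagocytes to dying cells, and P2Y6 for uptake of debris by macrophages and microglia. P2ry2 scored 242, 239, 227, 259 and 207 in WT tumors against 377, 298, 328, 274 and 341 in KO-labelled ones, without overlap. Its log2 difference was 0.46 ± 0.10 SE (1.37-fold, limma adjusted p = 0.00467). P2ry6 scored 773, 776, 746, 813 and 851 in WT tumors against 620, 620, 739, 814 and 771 in KO-labelled ones. KO1, KO2 and KO3 lay below the lowest WT tumor, KO3 by little, and KO4 and KO5 within the WT range, and the log2 difference of -0.16 (95% interval -0.36 to 0.04) did not pass (limma adjusted p = 0.189). Without KO4 and KO5 it was -0.27 and passed (limma adjusted p = 0.0360). The log2 ratio of P2ry2 to P2ry6 lay between -2.03 and -1.65 in WT tumors and between -1.57 and -0.72 in KO-labelled ones, without overlap.

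In an exact two-sided permutation test of each gene over the 10 tumors, the 6 genes without overlap reached 0.00794, the smallest p that 5 tumors against 5 allow. Any gene without overlap reaches this p, so for these genes it restates the separation of the groups. The permutation p was 0.0159 for Nt5e and Adora2b, 0.0238 for Adora3 and 0.111 for P2ry6, without adjustment for the 10 tests.

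KO-labelled tumors differed more from each other than WT tumors did. The median log2 SD of the 10 genes was 0.20 in KO-labelled and 0.14 in WT tumors, against 0.22 and 0.11 for the median of all tested genes. KO4 had the highest value of its group for 5 of the 10 genes (Entpd1, Adora2a, Ada, P2rx4 and P2ry6), and KO5 the lowest for 4 (Nt5e, Adora2a, Ada and P2rx4). Adora2b and Nt5e instead peaked in KO3. P2ry2 was lowest in KO4, where Entpd1 was highest.

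**Figure D3:**
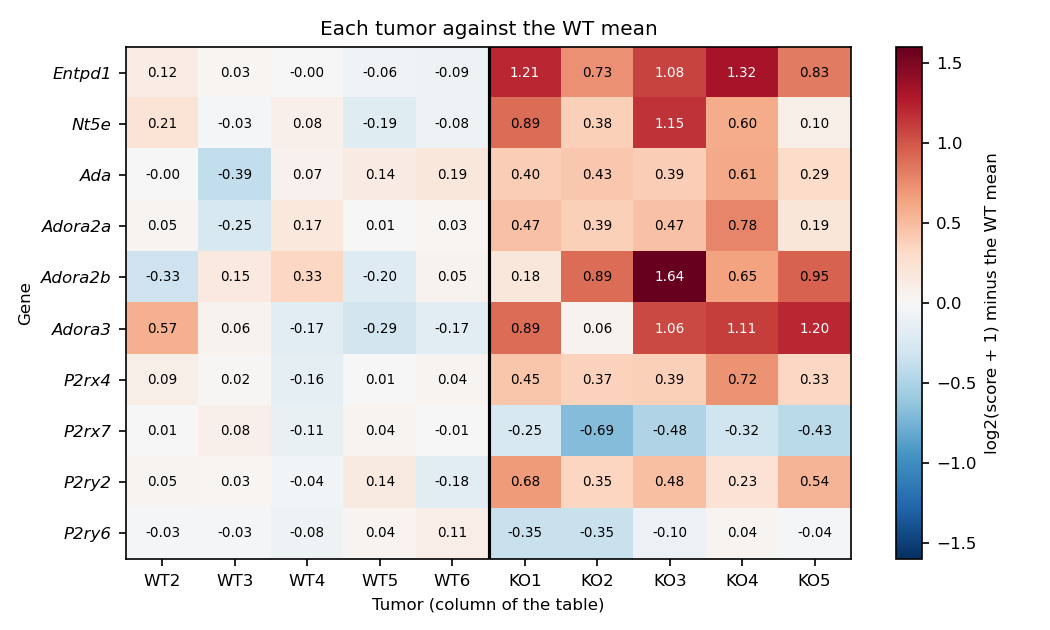
Each cell gives log2(score + 1) of a gene (rows) in a tumor (columns) minus the WT mean of that gene, red above and blue below 0. In the KO-labelled tumors Entpd1 lies between 0.73 and 1.32 and P2rx7 between -0.69 and -0.25.

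Levels were set beside each other after division by the length of the annotated exons. That length joins the exons of all annotated transcripts. Which transcripts were present was not tested, so the order of genes is approximate. In WT tumors P2ry6 (274 ± 14.1 per kb) and P2rx7 (258 ± 12.6 per kb) were highest, and their ranges overlapped. Entpd1 (179 ± 9.84 per kb) and P2rx4 (148 ± 9.38 per kb) followed, each separated from its neighbours, then Ada (80.2 ± 11.8 per kb) and P2ry2 (59.8 ± 4.91 per kb), which overlapped. Nt5e (27.0 ± 2.94 per kb), Adora2a (23.5 ± 2.48 per kb) and Adora2b (22.2 ± 4.15 per kb) could not be ordered, and Adora3 (3.43 ± 0.974 per kb) was lowest. In KO-labelled tumors Entpd1 was the most abundant (370 ± 62.8 per kb), and its lowest tumor (296.6 per kb) was above the highest of P2ry6 (282.0 per kb). P2rx4 (203 ± 23.6 per kb) and P2rx7 (192 ± 21.96 per kb), well apart in WT tumors, overlapped there.

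Markers of several cell types differed between the same groups. Of 9 macrophage markers 6 were higher and none lower, and their summed score was 29907 to 34782 in WT and 36694 to 56495 in KO-labelled tumors, highest in KO4. C1qa and C1qb made up 24.1% and 25.1% of that score over all tumors. Of 8 T cell markers 7 were higher (sum 1286 to 1789 in WT and 1912 to 3589 in KO-labelled tumors), and of 8 fibroblast markers 7 were lower and 1 higher (145759 to 163472 and 72869 to 103331). Most of the fibroblast sum was Col3a1, with means of 69967 and 38580, and Col1a2, with means of 59484 and 34348. Of 7 neutrophil markers 4 were tested, and 2 of these were higher, Csf3r and Mmp8. S100a8 and S100a9 overlapped and did not pass. The list sum was 381 to 532 and 657 to 1110, without overlap, and most of it was Csf3r, with means of 351 and 624. All 4 NK cell markers were higher (522 to 601 and 833 to 1127), of 5 mast cell markers 2 were lower (1546 to 3095 and 1543 to 2008), and of 5 dendritic cell markers 3 were lower (530 to 799 and 343 to 632). Regulatory T cell markers summed to 790 to 1345 and 867 to 1232, with 2 of 4 lower. Endothelial markers summed to 4159 to 4763 and 3209 to 4376, with 2 of 6 higher and 3 lower. Each gene was then set against the mean log2 level of the macrophage markers in the same tumor, an alternative added after the data were seen. This scale shifts the average difference of every gene by the same amount, so it cannot tell cell numbers from RNA per cell. Entpd1 was higher on it in all KO-labelled tumors than in any WT tumor, by 0.64 on average. P2rx7 and P2ry6 were lower in all KO-labelled tumors, with differences of -0.83 and -0.55. The other 7 genes overlapped on this scale, with differences of 0.47 for Adora2b and Adora3, 0.23 for Nt5e, 0.07 for Adora2a, 0.06 for P2rx4 and P2ry2 and 0.03 for Ada. Macrophage markers differ among themselves, and the part of cell numbers in these results was not tested.

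Other genes of ATP and adenosine handling changed in both directions. Of 44 tested, 15 were higher, 12 lower and 17 did not pass, and 61.4% called stood against 35.6% of all genes. The lists were chosen with earlier results of these data known, so the higher share is a description and not a test. All 8 inflammasome genes were called, whereas 10 of 16 enzymes did not pass. Median log2 differences were -0.10 for enzymes, -0.20 for receptors, -0.02 for channels and carriers and 0.72 for inflammasome genes. Among the other ectoenzymes and enzymes of adenosine clearance, 3 of 16 were higher and 3 lower. Enpp1, which releases AMP from ATP and also cuts cyclic GMP-AMP, fell 1.71-fold, from 348 ± 49.7 to 202 ± 26.1. Enpp2, whose product autotaxin makes lysophosphatidic acid, fell 2.18-fold, and the adenosine deaminase-like gene Adal fell 1.39-fold. Bst1, a relative of the NAD-cleaving ectoenzyme CD38, rose 3.94-fold, from 245 ± 32.8 to 1030 ± 411.7, while Cd38 was 1518 and 1803 and did not pass. Pnp, which breaks down the inosine that Ada makes, rose 1.55-fold, and its close copy Pnp2, whose reads could be confused with it, 1.87-fold. The kinase gene Adk, which returns adenosine to AMP inside cells, was 968 and 904 and did not pass. Acpp, another ectonucleotidase gene, was 1271 and 1451 and did not pass either.

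Of 7 other receptors, 2 were higher and 3 lower. The genes that fell were P2rx1 (30, 44, 45, 27 and 22 in WT and 7, 16, 13, 13 and 10 in KO-labelled tumors), P2ry1 (36, 28, 37, 22 and 31 and then 11, 15, 16, 8 and 12) and P2ry12 (348, 443, 338, 335 and 333 and then 177, 127, 130, 256 and 159), none with overlapping groups. P2rx1 and P2ry1 had KO-labelled means of 11.8 and 12.4, near the lowest mean of a tested gene over all tumors (9.8). P2rx1, P2ry1 and P2ry12 are the P2 receptors of platelets, although P2ry12 is also known from microglia and other resident macrophages. Itga2b and Pf4, chosen after their values were seen as genes of the platelet lineage, did not pass. Means were 64.2 and 76.4 for Itga2b and 568 and 612 for Pf4. Genes chosen in that way cannot decide on platelet numbers, and the part of platelets in these results was not tested. P2ry14, a receptor for UDP-sugars, rose 2.03-fold, and P2ry10, whose known ligand is a lysophospholipid rather than ATP, 1.57-fold. The high-affinity adenosine receptor gene Adora1 was listed at 0.

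The nucleoside carriers that passed went in opposite directions, while Slc29a2 (85.4 and 84.2) and Slc29a3 (1024 and 1156) did not pass. Slc29a1, which encodes the equilibrative transporter ENT1 that takes up adenosine, fell 1.63-fold, from 2969 ± 263.2 to 1823 ± 193.9, and Slc28a2, which encodes a sodium-driven carrier of purine nucleosides, rose 2.27-fold, from 382 ± 43.5 to 877 ± 171.3. Both had groups without overlap (limma adjusted p = 9.0e-05 and 4.7e-05). The largest change of these genes was that of Fam26f, of the calcium homeostasis modulator family of channels, which rose 2.96-fold, from 299 ± 62.1 to 920.0 ± 355.3. Its highest WT tumor scored 404 and its lowest KO-labelled tumor 593 (limma adjusted p = 0.00018). Panx1, which encodes the pannexin channel through which ATP leaves cells, rose 1.37-fold, whereas Lrrc8a, a subunit of the volume-regulated anion channel, fell 1.38-fold. The scramblase gene Ano6 and the Fam26f relatives Calhm2 and Fam26e fell 1.24-fold to 1.27-fold. Over this list of 13 tested genes 3 were higher, 5 lower and 5 did not pass.

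All 8 inflammasome genes changed, 7 upward. Il1b, whose product is the cytokine that the inflammasome matures, scored 755, 308, 529, 537 and 624 in WT tumors against 1272, 1938, 2109, 2015 and 1655 in KO-labelled ones (3.34-fold, limma adjusted p = 5.9e-05). The sensor gene Nlrp3 rose 1.90-fold, the adaptor gene Pycard 2.07-fold, the protease genes Casp1 1.64-fold and Casp4 1.67-fold, and Il18 and the pore-forming Gsdmd 1.28-fold and 1.27-fold. The exception was Nek7, whose product binds NLRP3 and is needed for its activation, which fell 1.39-fold, from 2339 ± 241.7 to 1681 ± 183.1 (limma adjusted p = 0.00195). P2rx7 and Nek7 were thus lower in the same tumors in which the other inflammasome genes were higher. Macrophage markers were also higher in those tumors, and their part was not tested.

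**Figure D4:**
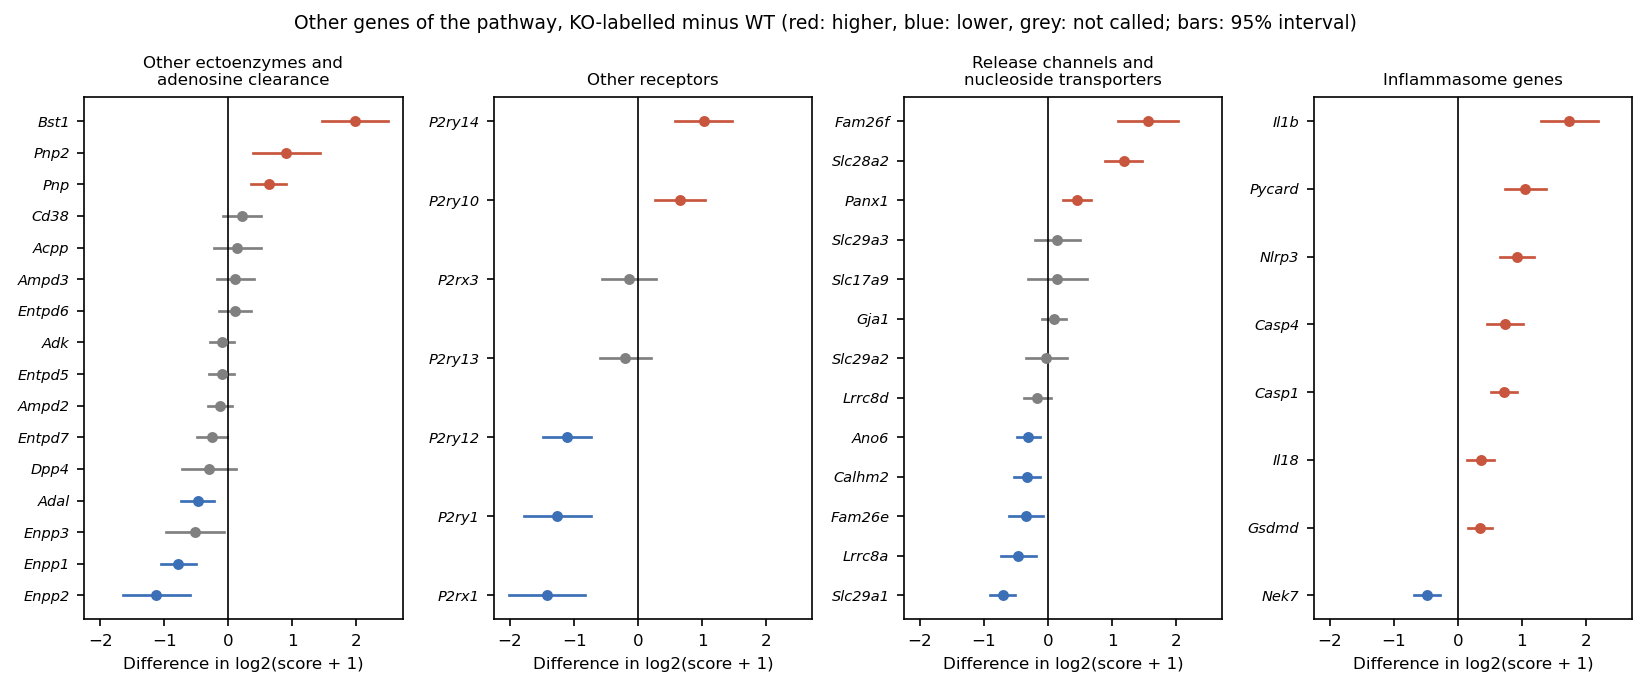
Difference in log2(score + 1), KO-labelled minus WT, of 44 other genes of the pathway in 4 lists, with 95% intervals (red higher, blue lower, grey not called). The inflammasome genes lie above 0 except Nek7 (-0.48), while the other lists hold both directions.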

How the data were processed

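As the methods text and processing notes state, the authors checked single-end reads with FastQC, used STAR for alignment to mm10 and featureCounts for gene counts, and ran edgeR through SARTools. Tool versions, annotation and strand setting: not given in the sources used here. Each deposited score is a read count that the authors normalized across libraries and rounded, so count models were not used. Genes at 0 in all 10 libraries (11495 of 24421) counted as not measured. The other 12926 were fitted with limma 3.58.1 in R 4.3.3 on log2(score + 1) on an intercept and the genotype, with variances moderated along a trend and Benjamini-Hochberg adjustment. Fold changes are on that scale, which understates changes of low genes, and ± after a log2 difference is its SE and after a mean its SD. The fit was tested on simulated data with equal spread in both groups. KO-labelled tumors spread more than WT tumors, so that test does not give the error rate of the calls here. The labels do not say that tumors are from separate litters or days, so p-values measure the spread between these samples. Groups came from sample titles, which number knockout tumors 1, 2, 3, 5 and 6, whereas columns run from 1 to 5, and KO4 and KO5 were used without a number. Gene positions and exon lengths are from GENCODE M21 (GRCm38, the assembly of mm10) and promoter windows from RefSeq, which held 8 of the 10 genes. The named genes are the 10 genes, Siah2, pathway genes past the threshold and, for genes past it with a log2 difference over 1, the 3 nearest profiles. Cd38, Adk, Acpp, Slc29a2, Slc29a3, Adora1, Tmigd3, Itga2b, Pf4 and the markers named singly fall outside this rule and were chosen after their values were seen. Those markers are the melanoma genes, Csf3r, Mmp8, S100a8 and S100a9. The members and lists were chosen with earlier results of these data known. Alternatives changed the pseudocount (0.5 or 10), the filter (mean of at least 50), the scaling, the trend, the sample weights and the tumors included.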

Additional observations from a re-analysis of the deposited data

Results flagged for a closer look

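P2rx4 in the KO-labelled tumor KO4 was 1715, while the other 4 tumors of its group lay between 1307 and 1414, a gap of 0.738 of the group's whole range, past the 0.71 set for 5 samples. This was the 1 flag among 20 groups examined, and chance flags about 1 in 20. The summed macrophage marker score was also highest in KO4 (56495), and its part in the value was not tested. Without KO4 the log2 difference of P2rx4 was 0.38 and still passed.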

How the results depend on the processing

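Over 20 alternatives, no direction of the 10 genes changed. Outside the fits of 4 tumors, 8 of 179 comparisons lost a call, 7 of them for Adora3 and 1 for Adora2a, and 1 gained it, P2ry6 without KO4 and KO5, where 2 genes were lower instead of 1 and Adora3 had a log2 difference of 0.67 (limma adjusted p = 0.135). With 1 tumor left out, 8 or 9 of the 10 genes passed, 7 or 8 as higher, and 25 to 28 of the other pathway genes. Among those, Fam26e lost its call when any of 7 tumors was left out, WT3, WT4, WT5, WT6, KO2, KO3 or KO5 (-0.37 to -0.26), Calhm2 without WT6 (-0.28), and Lrrc8a without both KO4 and KO5 (-0.30). Leaving out tumors changed the number of all genes called from 4606 to between 3649 and 5182.

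WT and KO-labelled tumors share the numbers 2 and 3, but the labels do not tie numbers to animals or days, and deviations of same-numbered tumors from their group means had correlations of 0.03 and 0.05. In the 4 tumors of these numbers, a fit with the replicate block called 5 of the 10 genes, 4 as higher, and a fit without it 3, 2 as higher, with 2938 genes called in all. Calls of Adora2a, Adora3 (log2 difference 0.24), P2rx4 and P2ry2 were lost in both fits, and those of Nt5e and Ada only in the fit without the block. Fewer tumors entered these fits. With a mean score of at least 50 required, Adora3, P2rx1 and P2ry1 were not tested. Adora3 had an estimated 9.96 to 13.3 reads in WT libraries, and the part of depth in its lost calls was not tested. No interval for counting error was derived, as the scores are not counts.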
